A study of Homo sapiens with 2 samples.

Results

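A list of 38 genes of glycolysis, gluconeogenesis and the response to low oxygen was followed in HuH6 cells, a human hepatoblastoma line, with and without an intact PIM3 gene. The symbols were listed by name, with earlier results of these data known, and were looked up in a table of 62571 rows. Of these symbols, 29 had 1 row of their own. Another 6 (ALDOA, PGK1, ENO2, PFKFB4, LDHB and HIF1A) occurred only in rows that joined them with a neighbouring gene, and LDHA, SLC16A1 and PCK2 each had 2 rows, all listed at 0. Averaged over the 2 libraries, 25 of the 29 reached 1 FPKM (fragments per kilobase of transcript and per M fragments) and are called measured, against 11256 of the 53188 symbols with 1 row of their own.

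The study compared parental cells (HuH6_WT) with cells in which PIM3, a kinase gene tied to survival and growth, had been disrupted with CRISPR/Cas9 (PIM3_KO). Both were untreated and were grown in the same serum-containing medium at standard culture conditions, and poly(A) RNA of each was sequenced in 1 library. The labels do not say whether the edited cells were a clone or a pool, and an effect of clone selection cannot be told apart from one of PIM3 loss. With 1 library per group differences below stand without replicates and without p-values.

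PIM3 itself was at 34.2 FPKM in the parental and 14.0 FPKM in the knockout library, 41.1% of the former. From the low values of the table, FPKM was scaled to about 28.4 M reads in the parental and 22.2 M in the knockout library. The deposited FPKM summed to 787250 and 1086210, so a rescaling of each library to the same total (TPM) lowered the median log2 ratio of all genes from 0.01 to -0.40, and directions and calls below are on the FPKM + 1 scale unless TPM is named. All 10 hepatocyte and hepatoblast markers with a row of their own reached 1 FPKM in PIM3_KO and 9 did in HuH6_WT. Their summed levels were 57833 FPKM in PIM3_KO and 26141 FPKM in HuH6_WT, of which APOA2 alone made 42433 and 19683 FPKM. Of the 10 log2 ratios 7 were positive and 3 (APOB, HNF4A and GPC3) negative, and under TPM 6 were positive. At least 2-fold higher were 6 of the 10, and 4 under TPM, against 6.89% and 2.87% of all genes. On both scales 0 were at least 2-fold lower. The highest ratios were those of AFP (1.19 FPKM in HuH6_WT and 70.1 FPKM in PIM3_KO), TTR (270 and 2232 FPKM) and ALB (0.520 and 9.18 FPKM). ALB reached 1 FPKM only in PIM3_KO and so had to differ. Of 6 endothelial markers 5 were under 1 FPKM in both libraries, with CDH5 and KDR at 0; 3 of 6 fibroblast and stellate cell markers were too, with a summed level of 10.3 FPKM in HuH6_WT and 10.7 FPKM in PIM3_KO. The 4 leukocyte markers summed to 8.42 and 16.0 FPKM and the 5 cholangiocyte markers to 1522 and 2097 FPKM. The part of these differences in the results below was not tested, and in bulk RNA fewer cells of a kind and less RNA per cell cannot be told apart.

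Glycolysis splits glucose into pyruvate, and lactate dehydrogenase and the monocarboxylate transporters dispose of that pyruvate as lactate. The liver can also run the route backwards, by gluconeogenesis, with its own enzymes at the steps that glycolysis cannot reverse. The transcription factor HIF, stable when its prolyl hydroxylases lack oxygen and are no longer able to mark it for VHL, switches on glucose transporters, most glycolytic enzymes, pyruvate dehydrogenase kinases, carbonic anhydrases and vascular growth factors. Fetal and tumour liver cells usually carry the isoforms of other tissues, such as HK2, PFKP and PKM, in place of adult hepatocyte forms such as PKLR.

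Only 3 of the 25 measured members differed at least 2-fold between the libraries. FBP1 and CA9 were higher in PIM3_KO and PFKFB3 was lower. That is 12% of the measured members, against 11.5% of all genes tested, and in each direction 2 higher against a background of 6.89% and 1 lower against 4.58%. The share of the list past 2-fold therefore lay near that of all genes. Under TPM 1 member was higher and 5 were lower, against 2.87% and 14.4% of all genes. After a correction for transcript length the counts were 2 and 1, against 4.95% and 4.59%, and among members with at least 1 FPKM in HuH6_WT they were 1 and 1, against 5.38% and 4.76%. The main counts rest on a log2 ratio of FPKM + 1, which understates differences of low genes.

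The stretches before the annotated starts of these 3 genes are shown because the members past 2-fold include known HIF target genes, and HIF binds DNA at a core of ACGTG or GCGTG. Each is the 250 bases before a start in RefSeq on GRCh38.p14, with matches to ACGTG on either strand in capitals (CACGT is its reverse complement) and those to GCGTG left in lower case. PFKFB3 has 2 starts in the RefSeq table, and the data do not tell which was used. The RefSeq starts differ from the ends of the gene positions given below. By those positions the FBP1 and second PFKFB3 stretches lie inside their genes. The end of the CA9 stretch, with its match to ACGTG, lies inside CA9.
CA9, chr9:35673678-35673927, plus strand: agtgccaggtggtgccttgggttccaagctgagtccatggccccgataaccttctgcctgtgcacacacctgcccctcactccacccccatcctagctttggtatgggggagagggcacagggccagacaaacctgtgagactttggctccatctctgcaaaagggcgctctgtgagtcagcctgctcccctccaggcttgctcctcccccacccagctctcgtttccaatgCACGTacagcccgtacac
FBP1, chr9:94639519-94639768, minus strand: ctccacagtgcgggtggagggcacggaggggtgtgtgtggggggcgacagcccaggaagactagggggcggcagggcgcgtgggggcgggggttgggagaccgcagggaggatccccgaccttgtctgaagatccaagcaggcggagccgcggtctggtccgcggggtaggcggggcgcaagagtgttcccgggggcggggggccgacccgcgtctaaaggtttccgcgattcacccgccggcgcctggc
PFKFB3 first start, chr10:6144671-6144920, plus strand: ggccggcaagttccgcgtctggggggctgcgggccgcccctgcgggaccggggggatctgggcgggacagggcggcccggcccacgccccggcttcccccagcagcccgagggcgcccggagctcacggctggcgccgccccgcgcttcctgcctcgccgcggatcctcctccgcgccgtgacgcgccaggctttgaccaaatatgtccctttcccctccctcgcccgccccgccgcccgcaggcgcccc
PFKFB3 second start, chr10:6202682-6202931, plus strand: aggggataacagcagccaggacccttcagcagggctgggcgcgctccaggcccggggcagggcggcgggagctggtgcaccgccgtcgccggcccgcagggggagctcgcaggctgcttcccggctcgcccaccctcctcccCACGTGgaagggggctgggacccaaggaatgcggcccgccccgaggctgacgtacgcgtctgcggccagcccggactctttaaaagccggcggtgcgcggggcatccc
The CA9 stretch held 1 match to ACGTG, on the reverse strand, beginning 18 bases before the start. The second PFKFB3 stretch held a match on each strand that overlap in 1 CACGTG, a palindrome also bound by E-box factors such as MYC, and the FBP1 and first PFKFB3 stretches held 0. The FBP1 stretch held 1 GCGTG, the first PFKFB3 stretch held 1 on the reverse strand (CACGC), and the CA9 and second PFKFB3 stretches held 0. GCGTG on either strand was present in 32.2% of all stretches and in 20 of the 62 of list members. A match to ACGTG was present in 18.5% of all 35116 stretches of this length in the table and in 21 of 62 stretches of the 33 list members found there, several of which belong to the same gene and overlap. A match is a description of these letters and not a measured binding site.

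FBP1, fructose-1,6-bisphosphatase, catalyses the gluconeogenic step that opposes phosphofructokinase and is a marker of the differentiated hepatocyte. The gene (ENSG00000165140.10) occupies positions 94603133 to 94640249 of chromosome 9 (GRCh38). Its level was 0.242 FPKM in parental and 2.16 FPKM in knockout cells, or about 8.85 and 61.9 reads, an 8.93-fold difference with an exact 95% counting interval of 4.34 to 20.1. Such intervals rest on approximate reads and cover counting error only. The parental level stood at percentile 0.773 of the genes tested and the knockout level at percentile 13.9, so FBP1 was scarce in both libraries. FBP1 entered the comparison only through its PIM3_KO value and so had to differ.

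The other gluconeogenic genes were not past 2-fold. PC, pyruvate carboxylase, which feeds oxaloacetate into the pathway, measured 10.3 and 8.42 FPKM. PCK1, the cytosolic phosphoenolpyruvate carboxykinase, stayed below the 1 FPKM limit at 0.185 and 0.308 FPKM, about 21.7 and 28.3 reads. The counting interval of the PCK1 ratio, 0.896 to 2.98, included equality. PCK2, its mitochondrial form, was listed at 0 in both of its rows, as was LDHA, which nearly every cell expresses, so these zeros say nothing about expression. G6PC, the glucose-6-phosphatase that releases free glucose from liver, had a single row listed at 0 in both libraries, and the widely expressed G6PC3 measured 33.7 and 33.1 FPKM.

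PFKFB3 makes fructose-2,6-bisphosphate, the small molecule that activates phosphofructokinase and inhibits fructose-1,6-bisphosphatase. The gene (ENSG00000170525.20) spans positions 6144934 to 6254644 of chromosome 10. Its level was 12.9 FPKM in parental and 3.998 FPKM in knockout cells, from about 1567 and 381 reads. This is a log2 ratio of -1.48, and the parental level was 3.23-fold higher (counting interval 2.88 to 3.61). The difference stayed past 2-fold under TPM (-1.89) and after a correction for transcript length (-1.28). Only 1.37% of all genes tested had a lower ratio than PFKFB3.

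The related enzymes of fructose-2,6-bisphosphate were low in both libraries. PFKFB2, the form known from heart, measured 4.33 and 2.29 FPKM, a log2 ratio of -0.69, and -1.06 under TPM. PFKFB1, the liver form, measured 0.0306 and 0.383 FPKM, and the row that joins PFKFB4 with UCN2 measured 3.23 and 2.29 FPKM. PFKFB3 held 62.9% of the summed family level in HuH6_WT and 44.6% in PIM3_KO, with the joined row counted for PFKFB4. The family sum was 20.5 FPKM in HuH6_WT and 8.97 FPKM in PIM3_KO.

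**Figure D1:**
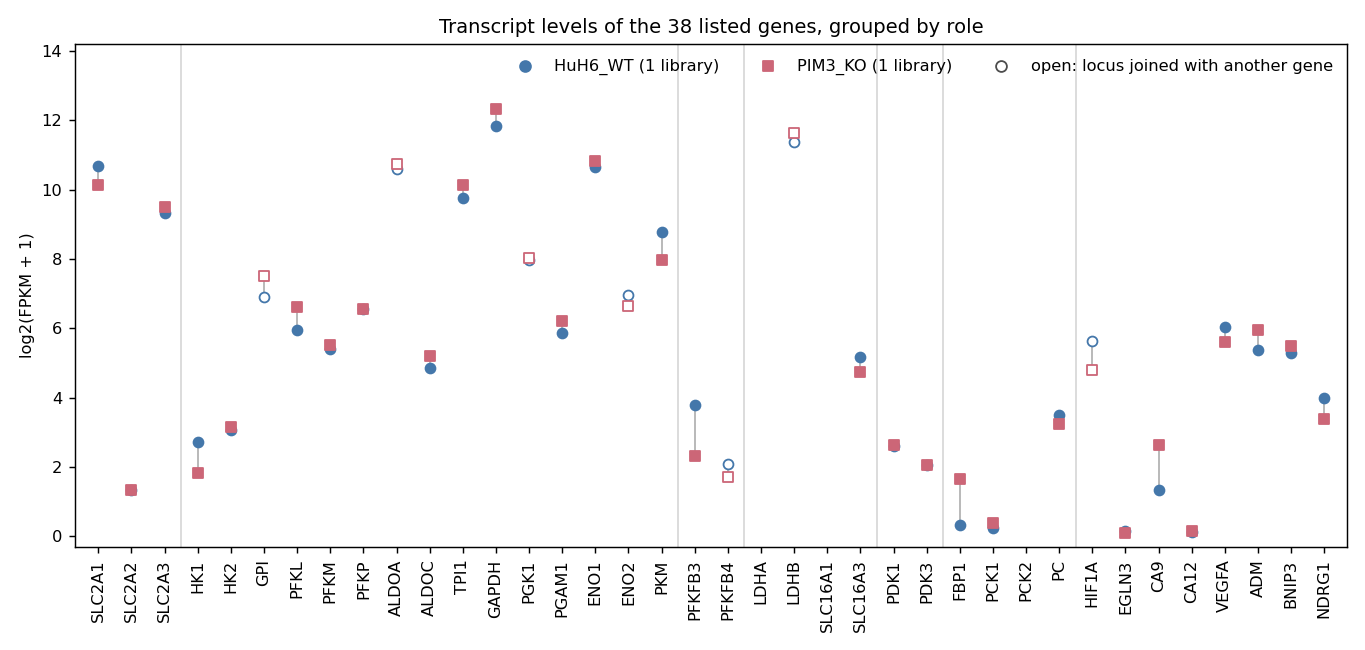
Levels of the 38 listed genes as log2(FPKM + 1) on the y axis, with genes on the x axis grouped by role (glucose transporters, glycolytic enzymes, PFK-2 enzymes, lactate formation and export, pyruvate dehydrogenase kinases, gluconeogenic enzymes, hypoxia response); circles are HuH6_WT, squares PIM3_KO, 1 library each, and open symbols are rows joined with another gene, shown for GPI too. No point is drawn for LDHA, SLC16A1 and PCK2, and the wide gaps between circle and square belong to PFKFB3, FBP1 and CA9.

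At the entry of glucose, the abundant transporter genes were SLC2A1 and SLC2A3. SLC2A1, which encodes the ubiquitous transporter GLUT1, stood at 1656 FPKM in parental and 1127 FPKM in knockout cells. Its log2 ratio was -0.55, and -0.43 after the correction for transcript length. Under TPM, where the median of all genes was -0.40, it was -1.02, past 2-fold. SLC2A3, which encodes the high-affinity GLUT3, measured 645 and 729 FPKM, a log2 ratio of 0.18 that turned to -0.29 under TPM. SLC2A2, the GLUT2 of adult hepatocytes, measured only 1.55 and 1.54 FPKM. SLC2A1 was the more abundant in both libraries but held 71.9% of the summed level of the 3 transporters in HuH6_WT and 60.7% in PIM3_KO. A common scale factor of a library cancels in such a share. SLC2A3 has a near-identical copy, SLC2A14, at 9.58 and 6.44 FPKM, and reads of the pair may be split wrongly. SLC2A1 shares exon positions with other annotated transcripts on both strands.

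The hexokinases, which trap glucose in the cell, differed in make-up between the libraries. HK1, the housekeeping form, measured 5.63 and 2.51 FPKM, from about 544 and 190 reads, and was 2.24-fold higher in HuH6_WT (counting interval 1.90 to 2.66) with a log2 ratio of -0.92 on the FPKM + 1 scale. With a pseudocount of 0.1 in place of 1 the ratio was -1.13, and under TPM -1.30, both past 2-fold. After the correction for transcript length it was -0.80. HK2, the inducible form often raised in tumours, measured 7.30 and 7.86 FPKM. HKDC1, a hexokinase that is not on the list and was taken from the other glycolytic genes, was the most abundant of the family in both libraries at 19.9 and 30.1 FPKM. Of the summed level of HK1, HK2, HK3 and HKDC1 it held 60.5% in HuH6_WT and 74.3% in PIM3_KO, while HK1 held 17.1% and 6.20%. HK3, at 0.0394 and 0.0502 FPKM, was close to the floor, where 3 reads on a 2 kb transcript amount to 0.0588 and 0.0750 FPKM.

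Phosphofructokinase, the committed step of glycolysis, was carried by all of its isoform genes. PFKP, the platelet form, measured 93.7 and 93.0 FPKM and PFKM, the muscle form, 41.0 and 45.2 FPKM. PFKL, the liver form, measured 60.4 and 96.9 FPKM, a log2 ratio of 0.67 (counting interval of the fold 1.54 to 1.67) that was 0.21 under TPM. PFKL was therefore below PFKP in HuH6_WT and slightly above it in PIM3_KO. Its share of the family level was 31.0% in HuH6_WT and 41.2% in PIM3_KO, and that of PFKP 48.0% and 39.5%. PFKM shares exon positions with SENP1 on the opposite strand, which measured 6.86 and 5.15 FPKM.

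**Figure D2:**
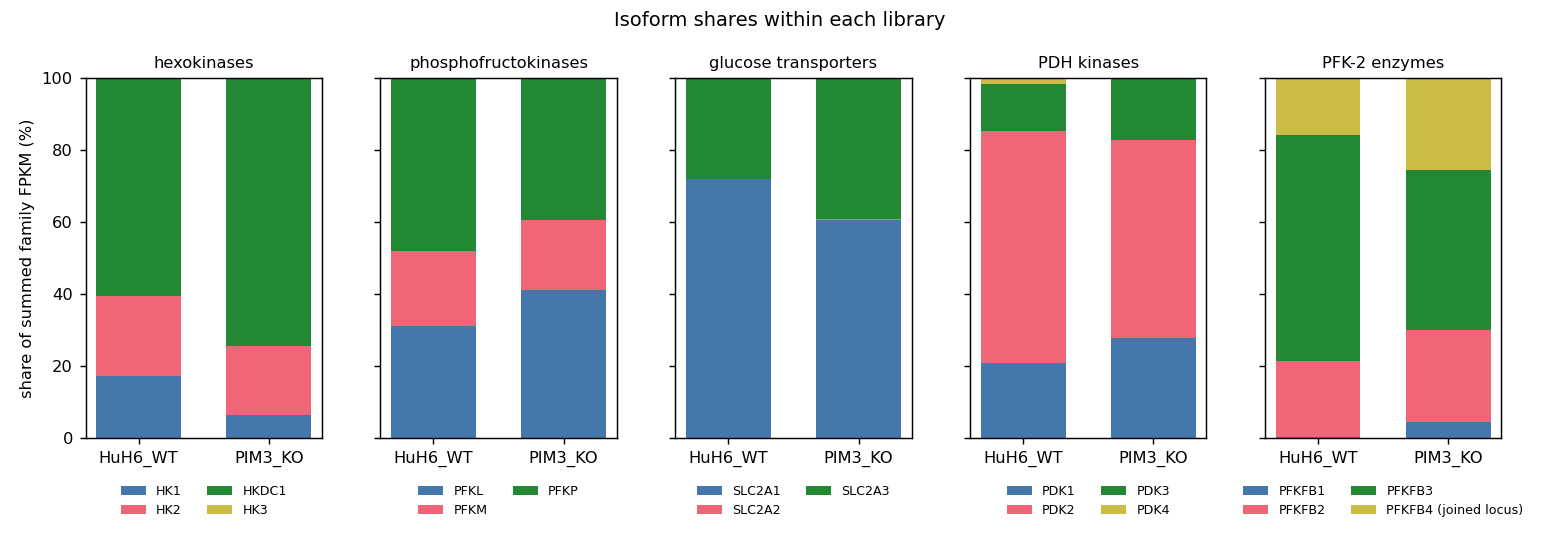
Share of each gene in the summed FPKM of its family (y axis, percent) in HuH6_WT and PIM3_KO, 1 library each; bars stack to 100%, and PFKFB4 is read from a row joined with UCN2. HKDC1 and PFKL held larger shares in PIM3_KO, and HK1, SLC2A1, PDK2 and PFKFB3 smaller ones.

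The enzymes of the lower pathway were among the most abundant transcripts of these cells. GAPDH, which oxidises glyceraldehyde-3-phosphate, stood at 3659.8 FPKM in parental and 5134 FPKM in knockout cells, above 99.8% of the genes tested in each. ENO1, the common enolase, measured 1618 and 1815 FPKM. TPI1, which interconverts the triose phosphates, measured 863 and 1131 FPKM. All of them were higher in the knockout library on the FPKM scale, with log2 ratios of 0.49 for GAPDH, 0.17 for ENO1 and 0.39 for TPI1. Under TPM the ratio of GAPDH was 0.02 and those of ENO1 and TPI1 turned negative, at -0.30 and -0.07. GAPDH has many processed copies, of which GAPDHP1 measured 4.73 and 4.53 FPKM.

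PGAM1, the phosphoglycerate mutase, measured 57.0 and 73.1 FPKM, far below the enzymes before and after it in the pathway. Its gene has many processed copies, so reads may be lost or split. ALDOC, the brain form of aldolase, measured 28.2 and 35.7 FPKM. Both had positive ratios on the FPKM scale, 0.35 and 0.33, and negative ones under TPM, -0.10 and -0.12. The common aldolase gene ALDOA was read only together with AC093512.2, at 1547 and 1705 FPKM.

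PKM, the pyruvate kinase of tumours and of most adult tissues, had a lower ratio than ENO1, GAPDH and TPI1 before it, on the FPKM and the TPM scale. The gene (ENSG00000067225.17, chromosome 15, positions 72199029 to 72231822) stood at 434 FPKM in parental and 248 FPKM in knockout cells. The log2 ratio was -0.80, and -1.27 under TPM, and 8.21% of all genes tested had a lower one. Against ENO1, the enzyme just before it, PKM stood at 26.8% in HuH6_WT and 13.7% in PIM3_KO, a comparison within each library that its scale does not touch. A value per gene does not separate the M1 and M2 splice forms of PKM. The liver and red cell form PKLR had 2 rows listed at 0, and, as for LDHA and PCK2, these zeros say nothing about its expression.

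Across the 11 measured glycolytic enzymes on the list, 8 had positive and 3 negative log2 ratios, with a median of 0.17. None was at least 2-fold different on the FPKM + 1 scale, against 11.5% of all genes. Under TPM 2 of the 11 (HK1 and PKM) were at least 2-fold lower, against 14.4% of all genes. Over all genes tested the median was 0.01 and 51% of the ratios were positive. Under TPM the 11 enzymes had 2 positive ratios and a median of -0.30, against a median of -0.40 for all genes, of which 26.1% were positive. After a correction for transcript length 8 of the 11 were positive, with a median of 0.17, and 0 were past 2-fold in either direction. The row that joins GPI, the phosphoglucose isomerase, with AC092073.1 and PDCD2L measured 120 and 181 FPKM, while the row of GPI alone was listed at 0 and at 0.377 FPKM. The row of PGK1 with ATP7A measured 249 and 262 FPKM, and that of ENO2, the neuronal enolase, with LRRC23 measured 124 and 98.8 FPKM. In joined rows the part of each gene is not known.

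**Figure D3:**
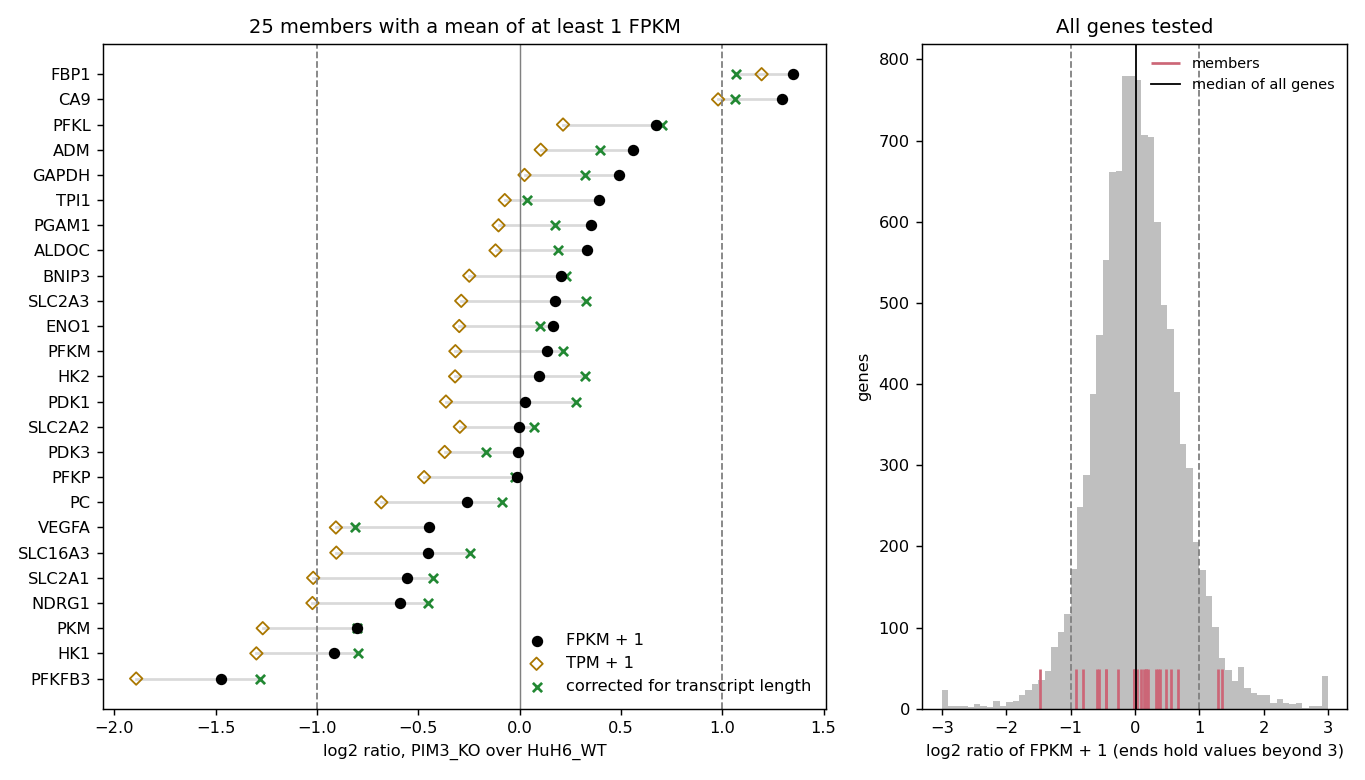
Left, log2 ratio of PIM3_KO over HuH6_WT (x axis) for each of the 25 measured members (y axis) from FPKM + 1 (dots), TPM + 1 (diamonds) and after a correction for transcript length (crosses), with dashed lines at 2-fold; right, number of genes (y axis) by log2 ratio of FPKM + 1 (x axis) for all 11256 genes tested, with members as ticks. Most members lie in the body of the distribution, between the extremes PFKFB3 at -1.48 and FBP1 at 1.35, and diamonds lie left of the dots throughout.

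Lactate formation could be read only in part. LDHA, the lactate dehydrogenase subunit that HIF induces, and SLC16A1, which encodes the lactate carrier MCT1, were listed at 0 in both of their rows and give no information. The row that joins LDHB, the heart subunit, with GYS2 and AC010197.2 was abundant at 2662 and 3158 FPKM. SLC16A3, which encodes the lactate exporter MCT4, measured 35.4 and 25.6 FPKM, a log2 ratio of -0.45, and -0.90 under TPM. BSG, the chaperone that carries these transporters to the cell surface, measured 460 and 550 FPKM. SLC16A3 shares exon positions with CSNK1D on the opposite strand, at 71.3 and 48.5 FPKM.

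The pyruvate dehydrogenase kinases, which shut pyruvate out of the mitochondrial oxidation route, were nearly equal on the list. PDK1, a HIF target, measured 5.03 and 5.15 FPKM and PDK3 measured 3.19 and 3.16 FPKM. The counting intervals of their fold differences on the FPKM scale, 0.959 to 1.09 and 0.774 to 1.26, included equality. Under TPM the log2 ratios of PDK1 and PDK3 were -0.36 and -0.37, where the median of all genes was -0.40. PDK2, from the wider list, was the most abundant of the family at 15.8 and 10.3 FPKM, or 64.7% and 55.2% of the family sum. Its log2 ratio was -0.57, and -0.47 after the correction for transcript length. Under TPM it was -1.01, past 2-fold. PDK4, the fasting-induced form, measured 0.379 FPKM in HuH6_WT and was listed at 0 in PIM3_KO.

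The hypoxia response genes on the list did not share a direction. CA9, a carbonic anhydrase of the cell surface and a HIF target used as a marker of hypoxia, stood at 1.51 FPKM in parental and 5.15 FPKM in knockout cells, from about 60.6 and 162 reads. It was 3.42-fold higher in the knockout library, with a counting interval of 2.51 to 4.63. Under TPM its log2 ratio was 0.98 instead of 1.30, just short of 2-fold. CA9 (ENSG00000107159.12, chromosome 9, positions 35673856 to 35681159) shares exon positions with ARHGEF39 on the opposite strand. ARHGEF39 was more abundant than CA9 in both libraries, at 9.42 and 11.7 FPKM, and whether reads were counted by strand is not given in the sources used here. Its part in the CA9 values was not tested.

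VEGFA, the vascular growth factor, stood at 64.9 FPKM in parental and 47.2 FPKM in knockout cells. NDRG1, a stress-induced gene that strongly responds to low oxygen, measured 14.8 and 9.50 FPKM. Both were lower in the knockout library, with log2 ratios of -0.45 and -0.59, and of -0.91 and -1.02 under TPM, where NDRG1 passed 2-fold. After the correction for transcript length the ratios of VEGFA and NDRG1 were -0.81 and -0.45. ADM, the vasodilator peptide adrenomedullin, went the other way at 40.7 and 60.5 FPKM, a log2 ratio of 0.56, and 0.10 under TPM. BNIP3, which targets mitochondria for removal, measured 38.1 and 44.0 FPKM, and its ratio of 0.20 turned to -0.25 under TPM. EGLN3, the oxygen-sensing hydroxylase that HIF itself induces, was close to the floor at 0.106 and 0.0678 FPKM, and CA12 measured 0.0976 and 0.118 FPKM. Of the 5 measured hypoxia genes, 3 had positive and 2 negative ratios, and under TPM 2 were positive.

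HIF1A, the oxygen-regulated subunit, could be read only in a row with SNAPC1, at 48.7 and 26.8 FPKM. The log2 ratio of that row was -0.84, and -1.29 under TPM, past 2-fold. HIF activity is set mainly by protein stability, which these data do not measure. EPAS1, the gene of the related HIF-2 subunit, measured 1.80 and 4.48 FPKM, a log2 ratio of 0.97. VHL, which directs HIF subunits to degradation, measured 25.2 and 10.9 FPKM, a log2 ratio of -1.13 (-1.58 under TPM), whereas ELOB, its partner in the same ligase, measured 394 and 833 FPKM, a ratio of 1.08 (0.62 under TPM). They were the 2 genes past 2-fold among 7 measured in their list, where 11.5% of all genes were. ELOC, another subunit, measured 105 and 178 FPKM, and the scaffold CUL2 18.7 and 11.6 FPKM. After the correction for transcript length the ratio of VHL was -0.9996, on the edge of 2-fold, and that of ELOB 0.67. EPAS1, at 1.19, was then the 1 gene of the list past 2-fold. On that scale 4.95% of all genes were at least 2-fold higher and 4.59% lower. ELOB shares exon positions with SRRM2 on the opposite strand. The hydroxylase genes EGLN1 and EGLN2 were found only in joined rows, at 102 and 149 FPKM for that of EGLN1 and 69.3 and 108 FPKM for that of EGLN2.

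A wider list of 34 HIF target genes held 26 that could be measured. Of these, 3 were at least 2-fold lower in PIM3_KO and 0 at least 2-fold higher, with 11 positive and 15 negative ratios and a median of -0.19. The lower genes included PLOD2 (13.9 and 1.78 FPKM), a collagen lysyl hydroxylase, and RORA (5.00 and 1.86 FPKM), a nuclear receptor. The 3 make up 11.5% of the 26, against 4.58% of all genes at least 2-fold lower. This list too was drawn up with earlier results of these data known, so the share is a description only. The highest ratios belonged to ANGPTL4 (2.02 and 4.60 FPKM), a lipase inhibitor, and EPO (0.747 and 2.15 FPKM), the erythropoietin gene, at 0.89 and 0.85; EPO passed the limit of 1 FPKM only through its PIM3_KO value and so had to differ. Under TPM 9 of the 26 were at least 2-fold lower, against 14.4% of all genes, and the list's median was -0.63. After the correction for transcript length 2 of the 26 were, and the median was -0.05.

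The genes around pyruvate entry and the pentose phosphate pathway also showed mixed directions. MPC2, a subunit of the mitochondrial pyruvate carrier, measured 87.2 and 177 FPKM and was the 1 gene of 11 measured in its list past 2-fold, where 11.5% of all genes were. Its log2 ratio of 1.01 was 0.55 under TPM and 0.91 after length correction, and under TPM 3 genes of the list were at least 2-fold lower, against 14.4% of all genes. PDHA1, the catalytic subunit of pyruvate dehydrogenase, measured 218 and 354 FPKM. DLD and PDHX, other components of the same complex, were lower in the knockout library at 52.7 and 31.3 FPKM and at 34.6 and 22.3 FPKM. Of the 8 pentose phosphate genes 0 passed 2-fold, and under TPM 3 (PGD, TKT and H6PD) were at least 2-fold lower. TALDO1 (332 and 641 FPKM) and PGLS (98.5 and 189 FPKM) came closest from above, and PGD (462 and 296 FPKM) and H6PD (4.80 and 2.76 FPKM) had the lowest ratios, -0.64 and -0.62.

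Glycogen genes, the remaining glycolytic genes and the other transporters stayed within 2-fold on the FPKM + 1 scale, where 11.5% of all genes did not. Under TPM 2 of 9, 1 of 10 and 1 of 8 were at least 2-fold lower, against 14.4% of all genes. GBE1, the glycogen branching enzyme, measured 12.1 and 5.94 FPKM, a log2 ratio of -0.92. PYGL, the liver glycogen phosphorylase, measured 16.4 and 24.7 FPKM and PGM1, which links glycogen to glycolysis, 71.5 and 91.4 FPKM. Among 10 further glycolytic and gluconeogenic genes, ENO3 (9.84 and 16.6 FPKM), the muscle enolase, and HKDC1 had the highest ratios, and PFKFB2 and ADPGK (27.5 and 19.5 FPKM), a kinase that phosphorylates glucose with ADP, the lowest. Of the 8 further sugar and monocarboxylate transporters, SLC2A8 (79.2 and 101 FPKM) and BSG had the highest ratios. The fructose transporter gene SLC2A5 (3.37 and 1.76 FPKM) and SLC2A14 had the lowest.

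Among 10 measured regulators of glucose sensing and gluconeogenesis, 1 was higher by 2-fold or more and 2 were lower by as much, against 6.89% and 4.58% of all genes. Under TPM the counts were 1 and 3, against 2.87% and 14.4%. TXNIP, a glucose-induced brake on glucose uptake, measured 3.07 and 12.3 FPKM, a log2 ratio of 1.71 that was 1.33 under TPM and 1.74 after length correction. CRTC2, a coactivator of the glucagon response, measured 29.1 and 13.6 FPKM, a log2 ratio of -1.05. PRKAA1, a catalytic subunit of the energy sensor AMPK, measured 13.5 and 6.20 FPKM, a ratio of -1.01 that became -0.79 after length correction. The highest ratio after TXNIP belonged to MYC, at 94.8 and 136 FPKM. MLXIPL, the glucose-responsive factor ChREBP known to drive TXNIP, measured 11.8 and 7.91 FPKM.

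**Figure D4:**
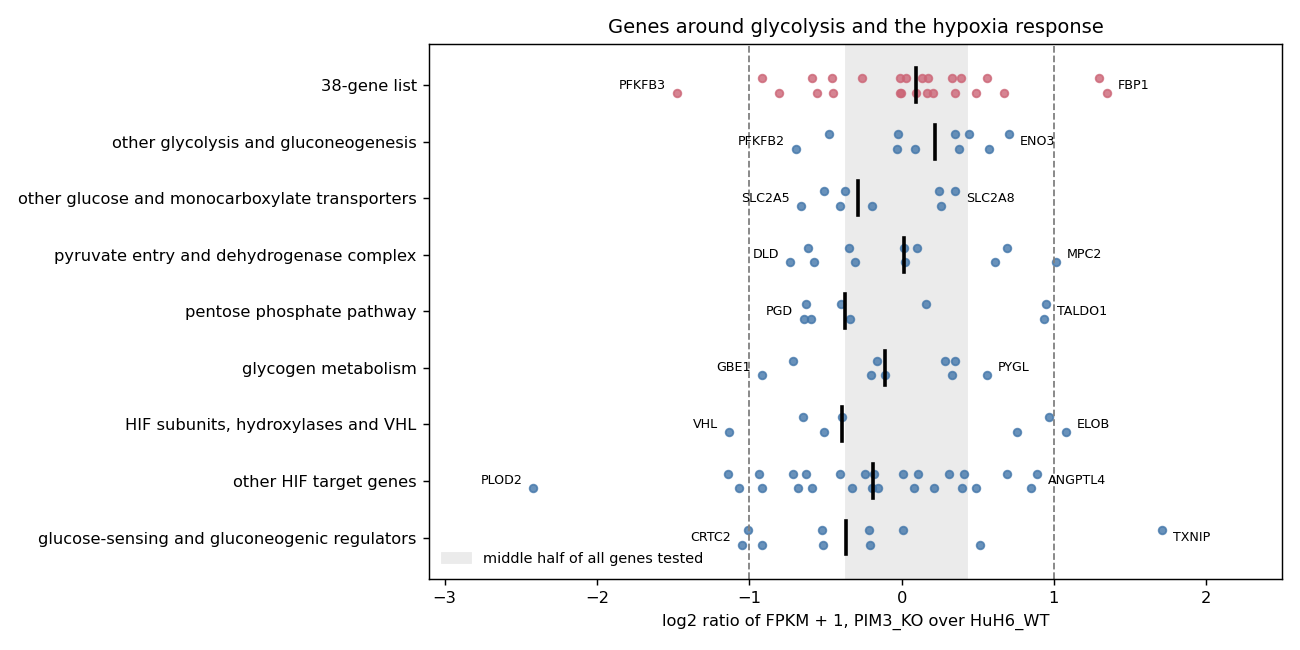
Log2 ratio of FPKM + 1, PIM3_KO over HuH6_WT (x axis), for each measured gene of the 38-gene list and of 8 related lists (y axis), with the list median as a black bar, the range between the quartiles of all genes tested shaded and dashed lines at 2-fold. PLOD2 at -2.42 and TXNIP at 1.71 lie farthest out, and each list has members on both sides of 0.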

How the data were processed

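Poly(A) RNA was read as single-end 75 bp reads from directional libraries, per the labels' protocols. Tools listed in the submitters' processing notes are Cufflinks 2.2.1, STAR 2.7.3a and bcl2fastq 2.18.0.12, with the build GRCh38; the gene annotation, any use of strand and any filter are not stated there. One column of FPKM per library was deposited by the authors.

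The 1736 rows that join several symbols and the 2204 symbols in several rows were left out of all counts. Ratios are log2 of FPKM + 1, PIM3_KO over HuH6_WT; genes averaging 1 FPKM or more were tested and called at 2-fold. Members, lists and related genes were chosen with earlier results of these data known. Named were all members, PIM3, the isoform families and the 2 highest and 2 lowest ratios of each other list; named after their values were seen were RORA, ELOC, G6PC, G6PC3, PKLR, MLXIPL, PFKFB1, the joined rows and genes that share exon positions. The comparison of PKM with ENO1 and the single hepatocyte markers were also chosen so. Some genes that the rule takes are left out of the text and of the isoform families and are not reported here.

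The value of 1 read was found from genes of 1 exon and 600 to 5000 bp, where FPKM times effective length in kilobases (200 bp subtracted) rose in steps of 0.0353 and 0.0450; under 20 reads, 96.6% lay within 0.05 of a whole number in each library. Reads of other genes are approximate, since they use the length of 1 GENCODE 29 transcript. Intervals are exact (Clopper-Pearson), cover counting error only, and no count test was run. Lowess (fraction 0.3, statsmodels 0.14.6) corrected ratios for length in the 11073 genes with one. The code (Python 3.11.15) was tested on simulated data.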

Additional observations from a re-analysis of the deposited data

How the results depend on the processing

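The main values were 2 members at least 2-fold higher, 1 lower and a median log2 ratio of 0.09 over 25 members. Shares of all genes called, given above, cover the main setting, TPM, the length correction and at least 1 FPKM in HuH6_WT alone. For the other settings they were not computed, so those counts describe the members only. With a pseudocount of 0.1 the counts were 2 and 2 and the median 0.11, and with a pseudocount of 5 they were 0 and 0 and 0.064. With no filter on low values all 3 values were as in the main result, over 29 members. A mean of at least 5 FPKM left 20 members, 0 higher, 1 lower and a median of 0.12. Under TPM 1 member (FBP1) was higher, 5 were lower (PFKFB3, HK1, PKM, NDRG1 and SLC2A1) and the median was -0.32. Ratios centred on the median of all genes gave 2, 1 and 0.080, and the length correction 2, 1 and 0.10. A further 3 alternatives were chosen after seeing the data. Adding 7 joined rows gave 2, 1 and 0.084. At least 1 FPKM in HuH6_WT alone, which removes FBP1, gave 1, 1 and 0.061. Leaving out CA9 and FBP1 gave 0, 1 and 0.029. These were the only 2 members called higher, so the count of 0 was fixed by that choice. Both share exon positions with a gene on the opposite strand, but so do other members that were kept, such as GAPDH and VEGFA. Under TPM 9 of 25 log2 ratios changed sign and under the length correction 1 did; none of the 3 members past 2-fold did. Shares within a family do not move with TPM. Families with LDHA, SLC16A1 and PCK2 got no shares, since these are listed at 0. No paired analysis was possible because each group had 1 library, and no replicate could be left out. Counting error limits FBP1 (about 8.85 and 61.9 reads), CA9 (60.6 and 162) and the genes under 1 FPKM.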
